A study of Mus musculus with 2 samples.

Results

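The 37 genes of the mouse mitochondrial chromosome were taken from the GENCODE M21 annotation by their names, which all begin with mt-, and a gene without a row in a library was counted as 0 reads. They comprised 13 protein-coding genes, 2 ribosomal RNA (rRNA) genes and 22 transfer RNA (tRNA) genes, against 15848 annotated genes of all chromosomes with a read in either library. A read was found for 20 of the 37 genes: 19 in replicate 1 and 17 in replicate 2. Unannotated transcript models on the same chromosome, most of them antisense to a gene, were described beside them.

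The counts came from long-read RNA sequencing of hearts of female B6CASTF1/J mice aged 2 months, hybrids from a cross between C57BL and CAST inbred mice. There was 1 group, heart, with 2 replicates and no treatment, and each library started from 2 µg of total RNA. The labels numbered the animals 3 and 4, but the text of both libraries named animal 3 and both carried the same donor identifier, so the labels did not settle whether 2 animals were sampled. Differences between the replicates therefore measure the spread between 2 libraries, which may be technical.

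Replicate 1 held 905154 reads and replicate 2 held 745375. Annotated genes other than spike-ins received 859191 reads in replicate 1 and 707758 in replicate 2. The unit CPM below means reads per 1000000 of these, and is divided by the annotated gene length in kilobases where genes are compared. A single read stood for 1.16 CPM in replicate 1 and for 1.41 in replicate 2. Where no read was counted, a level of up to 3.49 CPM in replicate 1 and 4.24 in replicate 2 remained possible (3 reads). Intervals for shares are Wilson 95% intervals, those for folds are exact, and both kinds cover the counting error of reads alone. Reads were not tied to single molecules by identifiers, so the counting error of molecules may be larger. Values after ± are SDs over both replicates (n = 2). All 7 cardiomyocyte markers had reads and summed to 39072 and 42958 CPM in replicates 1 and 2. Of the 5 skeletal muscle markers, Myh1, Myh2, Myh4 and Tnnt3 had no read in either library and Actn3 had 1 in each. Other sources of RNA were present, with the 4 globin genes of red cells at 31814 and 29122 CPM. The 5 fibroblast markers summed to 1398 and 1358 CPM, and the 4 endothelial markers to 554 and 489. The 4 macrophage markers summed to 144 and 119 CPM, and the 3 adipocyte markers to 113 CPM in replicate 1 and 45.2 CPM in replicate 2.

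The mitochondrial chromosome is a small circle that encodes core subunits of respiratory chain complexes I, III and IV and of the ATP synthase, together with the rRNAs and tRNAs that translate them. Each strand is transcribed into long precursors that span many genes. tRNA genes lie between most of the other genes, and excision of the tRNAs frees the rRNAs and messenger RNAs, most of which then receive a poly(A) tail. Some messages end in an incomplete stop codon that the tail completes. Heart muscle is rich in mitochondria and relies on their ATP for contraction.

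On the annotated chromosome 28 genes lie on the plus strand, the sense strand of RNA transcribed from the heavy strand, and 9 lie on the minus strand, namely mt-Nd6 and 8 tRNA genes. None of the 37 genes contains an intron, and each has 1 annotated model. The last 18 bases of 4 of the coding genes are shown, since they mark the ends to which the counted models extend. The stop letters of the annotated gene are in capitals. These are reference bases of mm10 on the plus strand of the chromosome, and mt-Co3, mt-Nd4 and mt-Cytb stop at a lone T, where mt-Co1 has a whole stop codon.
mt-Co3 (chrM:8607-9390): tttattgatgaggatctT
mt-Nd4 (chrM:10167-11544): ttacaggcctgacaataT
mt-Cytb (chrM:14145-15288): tactaaaattatatccaT
mt-Co1 (chrM:5328-6872): tatgtaaaagtaaaaTAA

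The 37 genes held 5327 of 859191 reads on annotated genes in replicate 1, a share of 0.620% (0.604 to 0.637), and 3856 of 707758 reads in replicate 2, or 0.545% (0.528 to 0.562). Fewer cells of a type and less RNA per cell cannot be told apart in bulk tissue. Every read of these genes was counted to the annotated model, 5327 of 5327 in replicate 1 and 3856 of 3856 in replicate 2. Over all annotated genes the share was 76.0% and 75.7%, which is not a like measure, since the 37 genes have no introns and 1 model each. Reads of unannotated models on the chromosome, 66 in replicate 1 and 50 in replicate 2, were not counted to these genes. The tables hold no read ends, so the part of each gene that its reads covered could not be measured. Coding genes gave 96.9% of the mitochondrial reads in replicate 1 (96.4 to 97.4) and 96.6% in replicate 2 (96.0 to 97.2). The rRNA genes gave 2.82% (2.40 to 3.30) and 3.03% (2.54 to 3.62), and the tRNA genes 0.263% (0.157 to 0.441) and 0.337% (0.197 to 0.576). The make-up of the mitochondrial reads by class thus overlapped between the libraries within these intervals. Plus-strand genes took 5325 of 5327 reads in replicate 1 and 3852 of 3856 in replicate 2, so that 9 minus-strand genes together had 2 and 4 reads.

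Just 2 genes made up most of these reads. mt-Co1, the catalytic subunit of cytochrome c oxidase, and mt-Cytb, the cytochrome b of complex III, together took 67.4% of mitochondrial reads in replicate 1 (66.2 to 68.7) and 64.1% in replicate 2 (62.6 to 65.6). mt-Co1 had 1772 reads in replicate 1 and 1390 in replicate 2, or 2062 and 1964 CPM. mt-Cytb had 1820 and 1082 reads, or 2118 and 1529 CPM. In CPM, mt-Cytb was thus the higher of the pair in replicate 1 and mt-Co1 in replicate 2. Per kilobase mt-Cytb was higher in both libraries, with 1852 CPM per kilobase in replicate 1 and 1336 in replicate 2, against 1335 and 1271 for mt-Co1. In replicate 2 this order turned once the reads of a nuclear copy of mt-Co1 on chromosome 1 were added, which put mt-Co1 at 1440 CPM per kilobase. The means of 1594 ± 364 CPM per kilobase for mt-Cytb and 1303 ± 45.1 for mt-Co1 lay closer together than the SD of mt-Cytb.

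By mean CPM, which is not scaled for length, mt-Co1 stood 52nd and mt-Cytb 64th among the annotated genes with a read. The nuclear genes next to mt-Co1 were Uqcrfs1, the Rieske iron-sulfur subunit of complex III, and Ndrg2 above it (2064 ± 53.8 and 2064 ± 110.6 CPM), with Hrc, which binds calcium in the muscle cell's calcium store, and the ATP synthase subunit gene Atp5o below (2002 ± 410 and 1975 ± 276 CPM). Next to mt-Cytb lay Oaz1, an inhibitor of polyamine synthesis, and the natriuretic peptide gene Nppa above (1826 ± 42.9 and 1825 ± 242 CPM), with Acadm, a fatty acid oxidation enzyme, and Nipsnap2 below (1800 ± 69.9 and 1754 ± 53.7 CPM). These neighbours are given by level alone, over 2 libraries, and all differ from their mitochondrial gene by less than the larger SD of the pair.

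**Figure D1:**
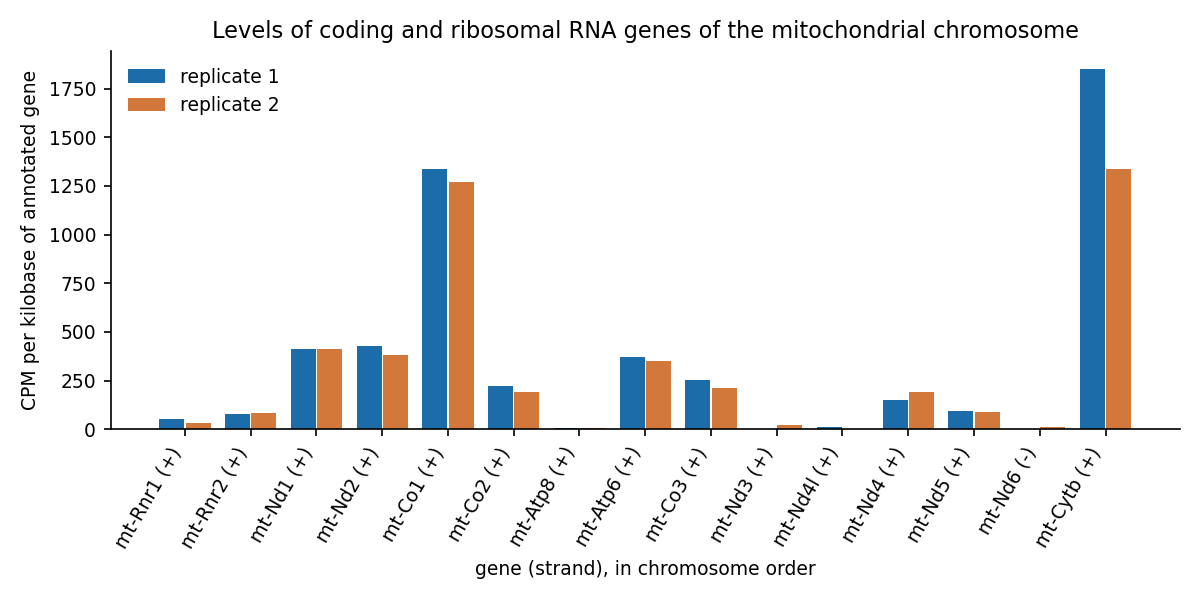
Reads per 1000000 reads on annotated genes, per kilobase of gene, of the 13 coding and 2 rRNA genes in chromosome order, with the strand in brackets. Bars stand for single libraries, and mt-Cytb (1852 and 1336) and mt-Co1 (1335 and 1271) rise above all others, of which mt-Nd2 is the highest at 426 in replicate 1.

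The remaining coding genes are described by complex, per kilobase of gene. Of complex I, the NADH dehydrogenase, mt-Nd1 (chrM:2751-3707) had 341 reads in replicate 1 and 278 in replicate 2, and mt-Nd2 (chrM:3914-4951) had 380 and 281. Both encode membrane-arm subunits, and their levels of 413 ± 3.03 and 404 ± 30.8 CPM per kilobase overlapped between the replicates. mt-Nd4 had 177 and 185 reads (170 ± 28.4 CPM per kilobase), and mt-Nd5 (chrM:11742-13565) had 149 and 118 (93.2 ± 2.60). They encode subunits of the same arm and lay below mt-Nd1 and mt-Nd2. mt-Nd3 (chrM:9459-9806) had 1 read in replicate 1 and 5 in replicate 2, mt-Nd4l (chrM:9877-10173) had 3 and 0, and mt-Nd6 (chrM:13552-14070, minus strand) had 0 and 4. Complex I genes thus spanned levels from a few reads to the third most abundant gene of the chromosome per kilobase. They held 20.4% of coding reads in replicate 1 (19.3 to 21.5) and 23.4% in replicate 2 (22.05 to 24.8).

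Complex IV, the cytochrome c oxidase, has besides mt-Co1 the core subunits mt-Co2, which carries the copper site that accepts electrons from cytochrome c, and mt-Co3. mt-Co2 (chrM:7013-7696) had 132 reads in replicate 1 and 94 in replicate 2, or 225 and 194 CPM per kilobase, and mt-Co3 had 170 and 119, or 252 and 214. The ranges of these 2 genes overlapped, and both stood well below mt-Co1 at 1335 and 1271 CPM per kilobase. Complex IV as a whole held 40.2% (38.8 to 41.5) and 43.0% (41.4 to 44.6) of coding reads, and complex III, whose mitochondrial part is mt-Cytb alone, 35.3% (33.96 to 36.6) and 29.0% (27.6 to 30.5). mt-Atp6 (chrM:7927-8607), the proton channel subunit of ATP synthase, had 217 and 169 reads (361 ± 14.3 CPM per kilobase), and mt-Atp8 (chrM:7766-7969), a small subunit of its membrane part, had 1 read in each library. With these, ATP synthase genes made up 4.22% (3.71 to 4.81) and 4.56% (3.94 to 5.28) of coding reads. With the reads of copies on chromosome 1 added, that became 7.15% (6.52 to 7.84) and 7.81% (7.04 to 8.65). Complex IV then held 44.2% (42.9 to 45.5) in replicate 1 and 46.7% (45.2 to 48.1) in replicate 2. Complex III then held 30.7% (29.5 to 31.9) and 25.1% (23.9 to 26.5).

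mt-Atp8 and mt-Atp6 overlap and are carried on a shared messenger RNA, as are mt-Nd4l and mt-Nd4. In both pairs nearly all reads were counted to the longer gene, which lies downstream. Whether reads counted to mt-Atp6 or mt-Nd4 also covered the upstream gene was not tested, since the tables hold no read ends. The shortest coding genes were also those with the fewest reads. The 4 genes of at most 519 bases (mt-Atp8, mt-Nd4l, mt-Nd3 and mt-Nd6) had at most 6 reads over both libraries, and the 9 genes of at least 681 bases had at least 226. Across the 13 coding genes, length and reads on a log2 scale had a Pearson correlation of 0.77, and a Spearman rank correlation of 0.75 on reads. These points share libraries and depth, and genes are not independent replicates. Reads of the 13 genes in replicate 1 against replicate 2 gave 0.96 (Pearson, log2 of reads + 1) and 0.95 (Spearman).

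In the order of levels per kilobase among coding and rRNA genes, mt-Cytb and mt-Co1 were followed by mt-Nd1, mt-Nd2, mt-Atp6, mt-Co3, mt-Co2, mt-Nd4, mt-Nd5, mt-Rnr2 and mt-Rnr1. Among neighbours in this order the replicate ranges overlapped for mt-Nd1 and mt-Nd2 and for mt-Co3 and mt-Co2. They also overlapped along the run of mt-Nd3, mt-Atp8, mt-Nd4l and mt-Nd6, which all averaged under 12 CPM per kilobase. Of the genes of at least 681 bases, the lowest were the rRNA genes at the start of the plus strand and the highest was mt-Cytb, the last coding gene on it. Of the tRNA genes, which are too short for a level per kilobase to rest on more than a few reads, mt-Ti reached 91.6 ± 13.6, mt-Tm 76.5 ± 36.6 and mt-Tt 68.2 ± 22.8 CPM per kilobase.

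The rRNA genes lay below all of the coding genes of at least 681 bases. mt-Rnr1 (chrM:70-1024), the RNA of the small ribosomal subunit, had 44 reads in replicate 1 and 21 in replicate 2, or 42.3 ± 15.9 CPM per kilobase. mt-Rnr2 (chrM:1094-2675), that of the large subunit, had 106 and 96 reads, or 81.9 ± 5.48 CPM per kilobase. mt-Rnr2 was thus higher than mt-Rnr1 per kilobase in both libraries. The priming method and any size selection are not stated in the sources used here, so these levels need not be those of the tissue.

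Of the 22 tRNA genes, 5 had a read in either library and 17 had none. mt-Ti, which reads isoleucine codons and overlaps the end of mt-Nd1, had 6 reads in replicate 1 and 4 in replicate 2. mt-Tm, the methionine tRNA directly before mt-Nd2, had 3 and 5, and mt-Tt, the threonine tRNA directly after mt-Cytb, had 3 and 4. The glutamine tRNA mt-Tq and the proline tRNA mt-Tp, both on the minus strand, had 1 read each in replicate 1 and 0 in replicate 2. The 5 tRNAs with a read are shown as reference RNA-sense DNA with the anticodon in capitals.
mt-Ti (chrM:3706-3774, plus strand): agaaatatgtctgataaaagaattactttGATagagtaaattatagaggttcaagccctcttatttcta
mt-Tm (chrM:3845-3913, plus strand): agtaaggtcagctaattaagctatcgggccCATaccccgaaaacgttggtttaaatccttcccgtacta
mt-Tt (chrM:15289-15355, plus strand): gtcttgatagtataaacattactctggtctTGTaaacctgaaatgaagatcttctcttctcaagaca
mt-Tq (chrM:3772-3842, minus strand): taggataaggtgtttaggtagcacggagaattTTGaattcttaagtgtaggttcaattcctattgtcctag
mt-Tp (chrM:15356-15422, minus strand): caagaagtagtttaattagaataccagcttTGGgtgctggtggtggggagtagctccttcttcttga

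The 17 tRNA genes without a read were mt-Tf, mt-Tv, mt-Tl1, mt-Tw, mt-Ta, mt-Tn, mt-Tc, mt-Ty, mt-Ts1, mt-Td, mt-Tk, mt-Tg, mt-Tr, mt-Th, mt-Ts2, mt-Tl2 and mt-Te. For each of them 0 reads allowed up to 3.49 CPM in replicate 1 and 4.24 CPM in replicate 2. These tRNAs were thus not detected, which does not show that they were absent. The bound concerns counted reads alone, since it is not known whether priming and any size selection kept RNAs this short.

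The nuclear genome holds copies of mitochondrial DNA, and 1 of them on chromosome 1 shared its reads with the genes above. The block spans chr1:24611535-24616197 and is annotated as 7 unprocessed pseudogenes on the minus strand. Of these, 5 match their mitochondrial gene without a mismatch over the aligned bases. The other 2 differ at 1 base each, counted from 1 at the start of the mitochondrial gene with its base first. Gm28438 differs from mt-Nd3 at T3C. Gm29216 differs from mt-Co1 at A1066T, next to the edge of the alignment, and the first 9 bases of Gm29216 lie outside it. Stretches of 40 bases that hold the difference, in capitals, show how alike gene and copy are.
mt-Nd3 (chrM:9459-9498, plus strand): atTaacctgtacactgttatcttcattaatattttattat
Gm28438 (chr1:24613080-24613119, minus strand): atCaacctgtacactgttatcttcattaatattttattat
mt-Co1 (chrM:6390-6429, plus strand): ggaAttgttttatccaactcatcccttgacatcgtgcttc
Gm29216 (chr1:24616149-24616188, minus strand): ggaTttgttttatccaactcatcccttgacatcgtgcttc

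The copies held 764 reads in replicate 1 and 578 in replicate 2. For the 3 longer genes whose copy is identical over nearly their whole length, the reads were divided about evenly. mt-Co2 had 132 and 94 reads and its copy Gm28661 had 148 and 105, so the copy took 52.9% (47.0 to 58.6) of both in replicate 1 and 52.8% (45.8 to 59.6) in replicate 2. For mt-Atp6, the copy Gm10925 had 206 and 166 reads, or 48.7% (44.0 to 53.5) and 49.6% (44.2 to 54.9). For mt-Co3, the copy Gm28437 had 172 and 115 reads, or 50.3% (45.0 to 55.6) and 49.1% (42.8 to 55.5). The interval of each of these 6 shares included 50%.

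Where the copy covered part of the gene the split was uneven. Gm29216, which matches the last 483 bases of mt-Co1, had 226 and 185 reads, or 11.3% (9.996 to 12.8) and 11.7% (10.2 to 13.4) of those on gene and copy. Gm28439, which matches the first 876 of the 1378 bases of mt-Nd4, had 2 and 4 reads, or 1.12% (0.307 to 3.98) and 2.12% (0.826 to 5.31). Both partial copies thus took fewer reads than their gene. The copies of the short genes had few reads, 8 and 2 for Gm28438, the copy of mt-Nd3, and 2 and 1 for Gm10222, the copy of mt-Nd4l. Gm29216, Gm10925, Gm28437 and Gm28661 had the highest mean CPM, in this order, of the 45 unprocessed pseudogenes with a read.

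**Figure D2:**
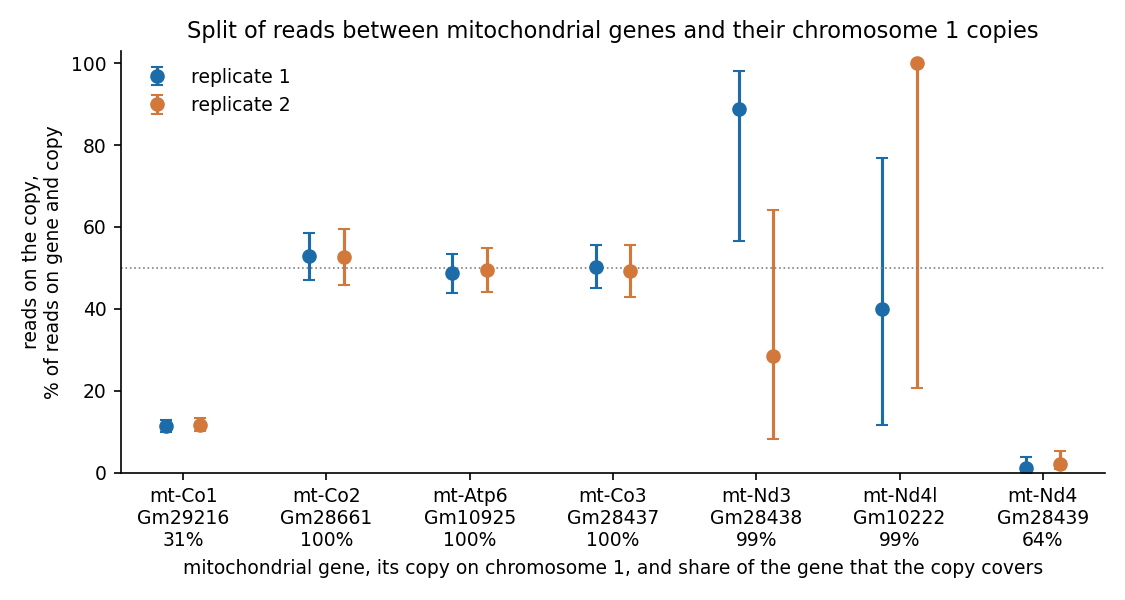
Share of reads counted to the chromosome 1 copy, in percent of the reads on gene and copy together, per library with Wilson 95% intervals. The percentage under each pair is the part of the mitochondrial gene that the copy covers, and the dotted line marks an even split. The copies of mt-Co2, mt-Atp6 and mt-Co3 lie at 48.7% to 52.9%, and that of mt-Co1 at 11.3% and 11.7%.

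A further 22 annotated genes elsewhere in the nuclear genome match a mitochondrial gene over at least 150 bases at 80.6% to 97.6% identity. Of these, 1 had reads: Gm13340 on chromosome 2, which is 97.6% identical to mt-Co1 over its whole length, had 21 in replicate 1 and 21 in replicate 2. That was 1.17% (0.767 to 1.78) and 1.49% (0.975 to 2.26) of the reads on mt-Co1 and Gm13340. The 3 nuclear matches to mt-Cytb and mt-Nd1 of this kind had no read.

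The levels of the 7 genes with an annotated copy in the block are therefore uncertain, since reads of identical sequence cannot be assigned between chrM and chromosome 1. Bases between the annotated pseudogenes were not aligned, so whether the block also copies mt-Atp8 or tRNA genes was not tested. With the copies' reads added, an option chosen after seeing the data, mt-Co2 stood at 304 ± 31.6 CPM, against 143 ± 14.7 CPM without, a ratio of 2.12. The ratio was 1.97 for mt-Atp6, 1.99 for mt-Co3, 1.13 for mt-Co1 and 1.02 for mt-Nd4. On few reads it was 2.47 for mt-Nd3, which stood at 29.3 ± 1.19 CPM per kilobase with the copy and 11.8 ± 11.99 without, and 2.07 for mt-Nd4l. Per kilobase the order then ran mt-Cytb, mt-Co1, mt-Atp6 (709 ± 19.7), mt-Co3 (465 ± 60.8) and mt-Co2 (444 ± 46.2), ahead of mt-Nd1 (413 ± 3.03) and mt-Nd2 (404 ± 30.8). The chromosome's share became 0.709% (0.691 to 0.727) in replicate 1 and 0.626% (0.608 to 0.645) in replicate 2.

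**Figure D3:**
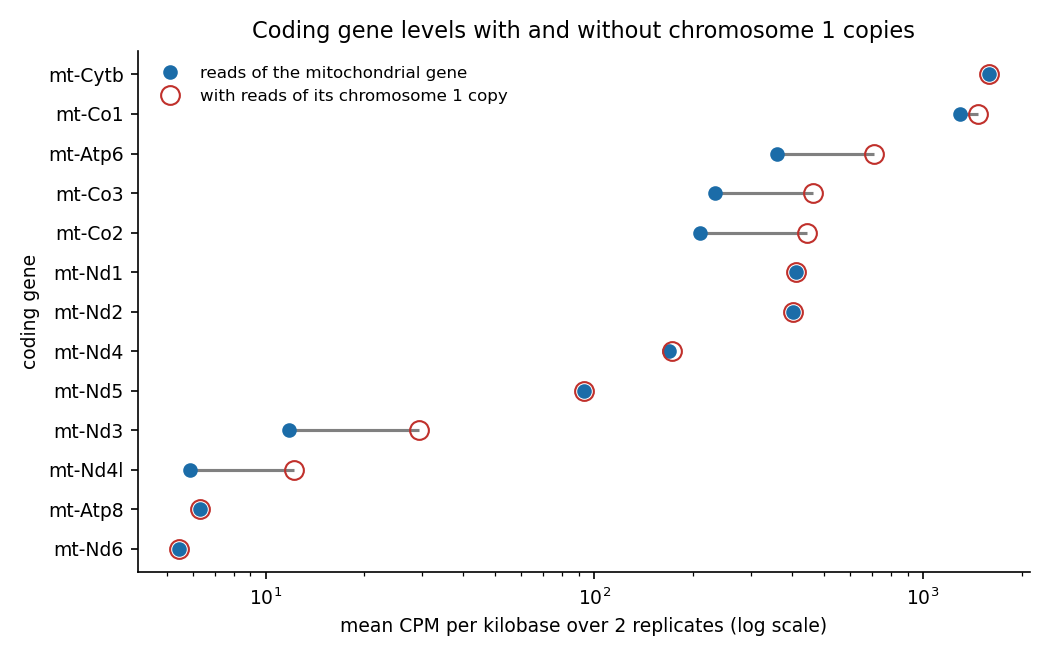
Mean CPM per kilobase over both replicates of the 13 coding genes on a log axis, from reads of the mitochondrial gene alone (filled) and with the reads of its chromosome 1 copy added (open). mt-Atp6, mt-Co3 and mt-Co2 move above mt-Nd1 and mt-Nd2 when the copies are added, to 709, 465 and 444.

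Unannotated models on the chromosome numbered 11 in replicate 1, with 66 reads, and 13 in replicate 2, with 50 reads. Models classed as antisense made up 9 and 12 of them. They held 47 of 5393 reads on the chromosome in replicate 1, or 0.872% (0.656 to 1.16), and 45 of 3906 in replicate 2, or 1.15% (0.862 to 1.54). Some of these models, on the minus strand of the control region, lay opposite no mitochondrial gene. They were chrM:16042-16295 with 4 reads in replicate 1, and chrM:15422-15940 and chrM:15940-16294 with 2 reads each in replicate 2. The spike-in RNAs have no natural antisense transcript, and their minus-strand reads were counted as antisense. That share was 0.844% (0.689 to 1.03) in replicate 1 and 0.634% (0.476 to 0.845) in replicate 2. On the chromosome the antisense models lay on both strands, so the shares are unlike measures. Unannotated models on its minus strand, antisense or not, held 23 of 5393 reads in replicate 1 and 17 of 3906 in replicate 2. Both were smaller parts than the minus-strand spike-in reads, 93 of 11019 in replicate 1 and 46 of 7250 in replicate 2. No interval was computed for these minus-strand models. With both strands counted, the intervals of chromosome and spike-ins overlapped in replicate 1, and in replicate 2 the chromosome lay above. That separation was lost when only models opposite a gene over at least 50% of their length were counted, with 0.797% (0.593 to 1.07) in replicate 1 and 0.922% (0.666 to 1.27) in replicate 2. In 6 of 11 and 7 of 13 models both ends coincided with an annotated gene end.

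The model with the most reads over both libraries lay opposite mt-Nd6. It spanned chrM:13565-14070 on the plus strand, from the last base of mt-Nd5 to the first base of mt-Nd6 as transcribed, and had 21 reads in replicate 1 and 4 in replicate 2. The next stretch, chrM:14070-14145 on the plus strand, lies opposite the glutamate tRNA gene mt-Te and ends at the first base of mt-Cytb. It had 3 reads in replicate 1 and 13 in replicate 2. Plus-strand reads over this interval between mt-Nd5 and mt-Cytb thus outnumbered the 0 and 4 reads of mt-Nd6 itself, and their division between the models was not alike in the libraries.

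The control region, which holds the promoters and an origin of replication, lies between mt-Tp and the end of the chromosome as numbered. Models within it had 23 reads in replicate 1 (18 plus, 5 minus) and 9 in replicate 2 (5 plus, 4 minus). Left out of these is a plus-strand model of replicate 2 with 5 reads, chrM:15356-15940, which starts opposite mt-Tp and runs into the control region. The leading model, chrM:15720-16295 on the plus strand, had 18 reads and was found in replicate 1 only, while replicate 2 had chrM:15940-16294 with 5. Opposite mt-Rnr2 a minus-strand model of the whole gene, chrM:1094-2675, had 4 reads in each library. Opposite mt-Nd4, minus-strand models from chrM:10533 to 10820 in replicate 1 and 10821 in replicate 2 had 6 and 3 reads. An antisense model in the chromosome 1 block, chr1:24611535-24612044 on the plus strand, had 4 and 3 reads and corresponds to chrM:10533-11042. As transcribed, it ends at the base that matches chrM:10533, where the models opposite mt-Nd4 end too. Reads opposite this stretch of mt-Nd4 thus cannot be assigned between both places.

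Between the libraries 12 of the 37 genes had the 10 reads in total needed for a test, and 25 were not tested. The two-sided exact conditional binomial test against library totals, with Benjamini-Hochberg adjustment over all 9334 genes tested, called 1 of the 12, where 1.15% of all genes tested were called (0.75% higher and 0.396% lower in replicate 1, and 0.321% with a fold of at least 2). That gene was mt-Cytb, with 1820 reads in replicate 1 and 1082 in replicate 2, a fold of 1.39 (1.28 to 1.495) and a log2 ratio of 0.47 (adjusted p = 1.28e-14, exact). The test compares 2 libraries and takes counting error as the only spread. Under the exact test of edgeR with a coefficient of variation set to 0.1 or 0.2, the adjusted p of mt-Cytb was 1. The other 11 genes were not called. mt-Rnr1 had a log2 ratio of 0.77 (exact p = 0.045, adjusted 0.574) on 44 and 21 reads, and mt-Nd4 of -0.34 (exact p = 0.026, adjusted 0.474). mt-Nd4 and mt-Rnr2 (-0.14) were the genes with a ratio below 0, and the other 10 lay above 0. mt-Co1 had a fold of 1.05 (0.978 to 1.13), mt-Nd1 of 1.01 (0.860 to 1.19) and mt-Nd2 of 1.11 (0.952 to 1.30). The median log2 ratio was 0.12 over the 12 genes and -0.05 over all genes tested.

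**Figure D4:**
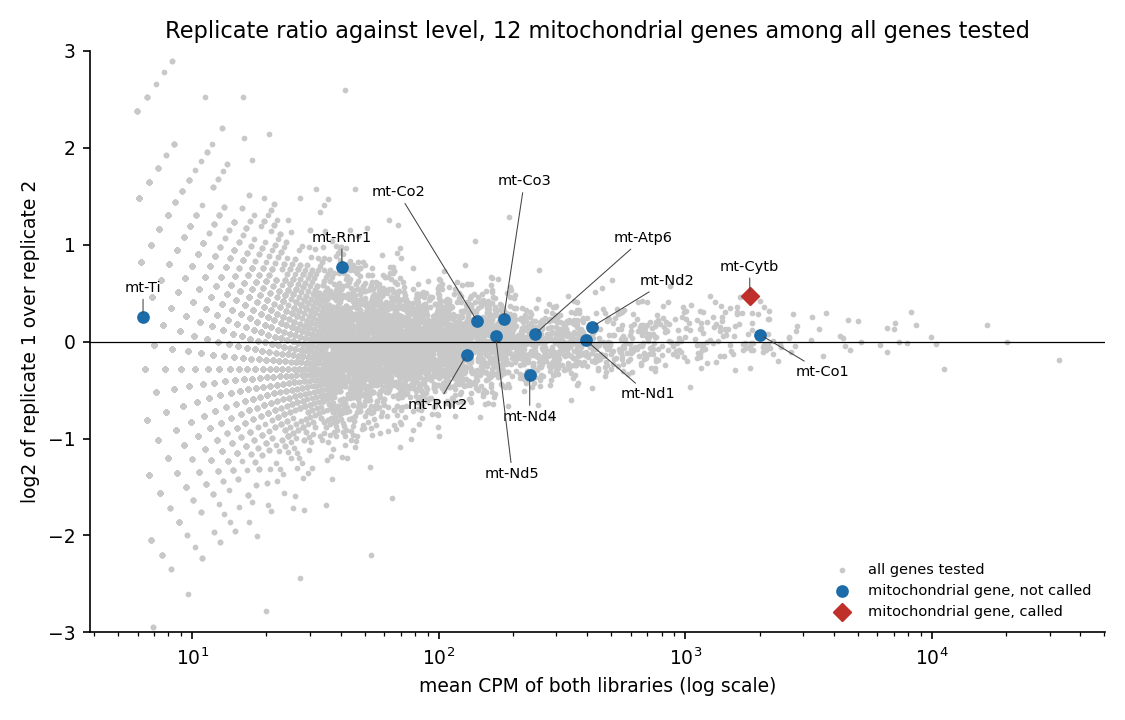
Log2 ratio of replicate 1 over replicate 2 against mean CPM (log axis) for the 12 mitochondrial genes tested, among all 9334 genes tested (grey; 11 lie outside the range shown). mt-Cytb at 0.47 is the 1 gene of the chromosome that was called, and mt-Nd4 (-0.34) and mt-Rnr2 (-0.14) are the ones below 0.

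Nuclear genes of mitochondrial gene expression were followed as a list of 50. It covered replication, transcription, RNA processing, RNA stability and translation, and also held regulators of nuclear genes, among them Esrra. Reads were found for 48 of the 50 genes and 44 were tested, of which 1 was called higher in replicate 1 and none was called lower. The log2 ratio was below 0 for 31 of the 44 and above 0 for 13, against 5147 and 4187 of all genes tested. An unadjusted exact p below 0.05 was found for 9 of the 44. Over all genes tested 1.15% were called, and 796 of 9334 (8.53%) had an unadjusted p below 0.05. The median log2 ratio of the 44 genes of the list was -0.20. The called gene was Esrra, an orphan nuclear receptor that acts on genes of oxidative metabolism, with 894 reads in replicate 1 and 494 in replicate 2 (log2 ratio 0.58, adjusted p = 3.98e-10, exact test). Only 5.40% of the Esrra reads lay on annotated models, and on those alone it was not called.

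The 5 genes of the list with the most reads, not scaled for length, began with Esrra at 869 ± 242 CPM. Fastk, a member of a family of mitochondrial RNA-binding proteins, followed at 759 ± 65.8 CPM. Ssbp1, which binds single-stranded mitochondrial DNA, had 291 ± 51.4 CPM. Lrpprc, which keeps mitochondrial messenger RNAs stable, had 257 ± 49.6 CPM, and Hsd17b10, a subunit of the enzyme that cuts the 5′ ends of the tRNAs, 237 ± 11.8 CPM. Of the transcription apparatus, Polrmt, the mitochondrial RNA polymerase, had 39 and 34 reads in replicates 1 and 2. Tfam, which packages mitochondrial DNA and starts its transcription, had 16 and 24, and the transcription factor gene Tfb2m had 50 and 55.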

How the data were processed

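Long reads were counted in 2 heart libraries. The deposited counts are whole reads per transcript model, 1 library each, not pooled or normalized, with models at 0 left out. The authors made them from alignments to mm10 with the GENCODE M21 annotation and TALON models, per the file headers and the text deposited beside them. No aligner, version or filter is given in the sources used here. Model starts and ends came from the deposited annotation files.

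Reads were added up over the models of each gene, without spike-ins. A gene needed 10 reads over both libraries to be tested (scipy 1.17.1), as described with the results, and called at an adjusted p below 0.05. Log2 ratios added 0.5 reads to each count. edgeR's quasi-likelihood test had no residual degrees of freedom. TMM factors and the exact test of edgeR 4.0.16, DESeq2 1.42.0 size factors, read minimums, pseudocounts and model classes served as alternatives. The test was tried on simulated libraries. Copies were found by aligning annotated transcripts to the mitochondrial genes with BLAST+ 2.17.0 (at least 80% identity over at least 150 bases).

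Genes named were all 37 members, the 5 unannotated models with the most reads, copies with a read, 2 neighbours in level on each side of mt-Co1 and mt-Cytb, and the 5 genes with the most reads and all called genes of the machinery list. Polrmt, Tfam and Tfb2m, the remaining models and the antisense model on chromosome 1 were named after their values were seen. The members and lists were chosen with earlier results of these data known. The share of full-length reads, planned as a result, could not be computed, since the tables give no read ends. Each library's depth and the precision it gives are stated with the results.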

Additional observations from a re-analysis of the deposited data

How the results depend on the processing

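No paired analysis was possible because there was 1 group. The mean share of the mitochondrial chromosome was 0.582% and became 0.768% on annotated models only, through the smaller total, 0.401% without mt-Cytb and 0.668% with the chromosome 1 copies, and ran from 0.545% to 0.620% with 1 replicate left out. The complex I share of coding reads was 21.9% and became 19.2% with the copies. The count of 1 mitochondrial gene called became 0 with a 2-fold minimum and 0 with preset variation of 0.1 and 0 at 0.2. The count of 1 gene called from the machinery list, the regulator Esrra, became 0 under the same 3 settings and 0 on annotated models only. Over the 12 mitochondrial genes tested, 48 refits with other scaling, annotated models or copies kept direction and side of the threshold, and 24 ratios with other pseudocounts kept direction. Preset variation ended the call of mt-Cytb, as above. The mean levels per kilobase of mt-Co1, mt-Co2, mt-Atp6 and mt-Co3 moved to 1473, 444, 709 and 465 with the copies. Over all genes 107 were called (70 higher, 37 lower in replicate 1), against 122 (96 and 26) with TMM factors, 120 (94 and 26) with DESeq2 size factors, 74 on annotated models only, 12 with preset variation of 0.1 and 4 at 0.2. Levels by read-weighted model length equalled the main levels in 12 of 12 genes, since their reads lie on 1 model each. The full-length share and its alternatives were not run, since the tables hold no read ends. Genes under 10 reads were too shallow for a test.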
